A study of Mus musculus with 6 samples.

Results

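The 10 genes described here belong to the Notch pathway: the receptors Notch1, Notch2 and Notch3, the ligands Jag1, Jag2 and Dll1, and the target genes Hes1, Hey1, Heyl and Nrarp. They were chosen by name and not by any measured value, and are 10 of 21911 protein-coding genes in the annotation used. For each gene, chromatin accessibility was read at its annotated starts and in 500 bp tiles over the gene body plus 50 kb on each side. The values come from single-cell ATAC-seq, in which the Tn5 enzyme cuts open chromatin and each end of a sequenced fragment marks 1 cut site.

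Notch is a receptor at the cell surface that is bound by Jagged or Delta-like ligands on a neighbouring cell. Binding leads to its cleavage, first by an ADAM protease and then by gamma-secretase, and the freed intracellular part enters the nucleus, where it joins the DNA-binding protein RBPJ and a Mastermind coactivator to switch on targets such as the Hes and Hey repressors and the feedback inhibitor Nrarp. In the olfactory epithelium, horizontal basal cells (HBCs) are reserve stem cells that stay dormant until the tissue is injured, and Notch1 signalling is known as a part of what keeps them dormant.

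The study compared HBCs of uninjured mice with HBCs taken 24 hours after injury. Every group carried Krt5CreER and Rosa26LSL-YFP/LSL-YFP, and YFP-positive cells that excluded propidium iodide were sorted from dorsal olfactory epithelium. The injured mice had received methimazole, which destroys much of the olfactory epithelium, by intraperitoneal injection, and the uninjured mice are labelled as controls. Each group had 3 libraries, from mice of 8 weeks (replicate 1), 6 weeks (replicate 2) and 6 to 7 weeks (replicate 3) in both groups. Krt5, the driver of the Cre, is a keratin of basal cells, and YFP persists in the descendants of a labelled cell. The sort thus holds any cell of that lineage, and a change in the mix of cells and a change within cells cannot be told apart in values summed over a library.

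The libraries held between 8100227 and 23937953 fragments. Barcodes with at least 2000 fragments were kept, 454, 889 and 629 in the uninjured and 1338, 420 and 746 in the injured libraries by replicate number, and their cut sites were summed per library (14825320 to 44875242). The summed level of 10 HBC markers (Krt5, Krt14, Trp63, Itgb4 and others) was 906 to 1030 CPM (cut sites per 1000000 kept) in uninjured and 801 to 935 CPM in injured libraries. None of the 10 was at 0, but nor was any marker of the other cell types, so this does not tell cell types apart. For 5 of the 10 every uninjured library lay above every injured one, and for 0 the reverse held. Of all 20305 gene bodies tested, read with 2 kb upstream like the markers, 7655 did not overlap between the groups in either direction. The 5 markers are thus not read as a loss of HBCs. Markers of other cells were present too. The 9 sustentacular markers, of the supporting cells that methimazole destroys, summed to 229 to 258 CPM before and 146 to 169 CPM after injury, and those of mature and of immature neurons were highest in injured replicate 3, at 425 and 490 CPM. The part of these cell types in the results below was read from clusters of barcodes, described further on. Uninjured replicate 3 and injured replicate 3 shared 34 barcodes, 5.41% of the smaller set, and 97.2% of the fragments of those barcodes in the shallower library were identical in the other. Other pairs of libraries shared 0 to 4 barcodes, with up to 91.7% of the fragments identical (injured replicates 1 and 2, 1 barcode). Leaving all shared barcodes out of 1 library of each pair gave 62 changed tiles at the 10 loci against 61 with them. Of those 61 that fit called all 36 gains and 20 of the 25 losses.

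CPM in the text is relative to all kept cut sites of a library. Promoters took 31.5 to 33.5% of these in uninjured and 24.7 to 27.7% in injured libraries, so most promoters have a lower CPM after injury. The log2 changes come from edgeR with TMM factors and are relative to the middle of all promoters, starts or tiles tested, with Benjamini-Hochberg adjusted p-values over all of them and a threshold of 0.05. A change is always injured minus uninjured, and its error is a standard error (SE).

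At their 5′-most annotated starts, 0 of the 10 genes changed past the threshold. Read over 1 kb on each side of the start, 3.91% of 17140 promoters were called in either direction by edgeR, and DESeq2 called 1 of the 10, Heyl, lower (adjusted p = 0.0419), where it called 7.2% of all promoters and 3.37% lower. At an unadjusted p under 0.05 edgeR had 3 of them, the targets Hes1, Hey1 and Heyl, all below 0, where 21.8% of all promoters were under that value. With the replicate number as a block 2 of the 10 passed, Hey1 and Heyl, both lower, where 10.4% of all promoters were called and 5.89% lower. The median log2 change of the 10 was −0.12, against 0.00 over all promoters, and 8 of the 10 were below 0. In CPM, 6 of the 10 did not overlap between the groups, a property shared by 50.6% of all promoters. Without TMM factors the median promoter fell by 0.28 on the log2 scale and 8 of the 10 genes were called lower, and with factors from 10 kb bins it fell by 0.53 and the same number was called lower. These scalings called 40.9% and 58.8% of all promoters, 38.4% and 57.2% lower.

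**Figure D1:**
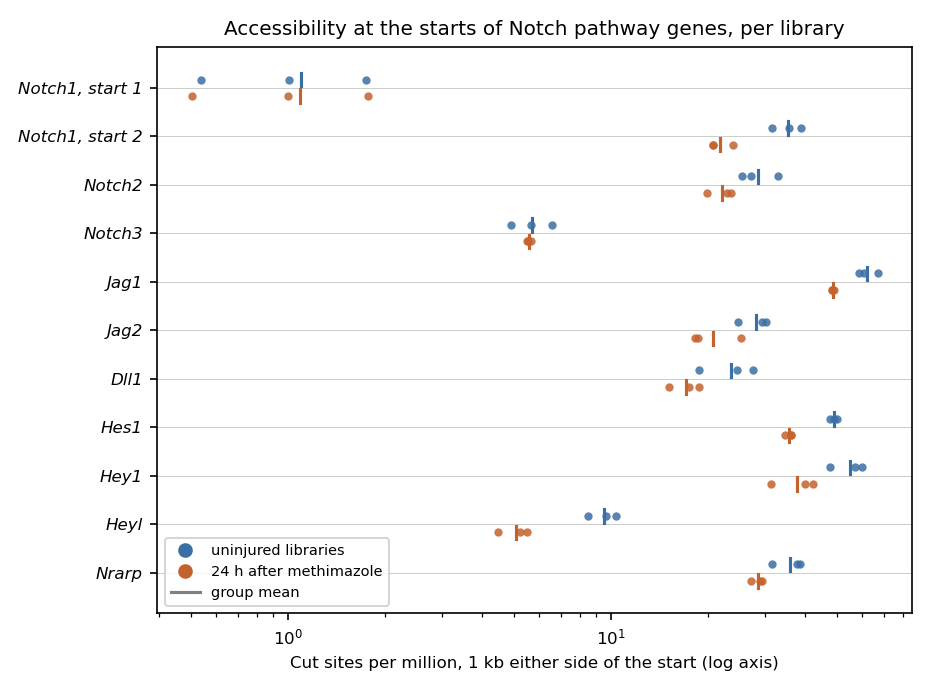
CPM within 1 kb of a start (log axis) for each of the 10 genes, with 2 starts for Notch1. Each dot is a library, blue for uninjured and orange for injured, and short lines are group means. Start 1 of Notch1 holds 0.504 to 1.77 CPM, while start 2 and the starts of the other genes except Notch3 and Heyl lie above 15 CPM, and the injured dots lie left of the uninjured ones at 7 of the 11 windows shown.

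The levels at these windows, all of the same length, put Jag1 first with a mean of 55.4 CPM over the 6 libraries. Hey1 (46.3 CPM) and Hes1 (42.3 CPM) followed, and their libraries overlapped. Nrarp stood at 32.2 CPM, the second start of Notch1 at 28.5 CPM, Notch2 at 25.3 CPM, Jag2 at 24.4 CPM and Dll1 at 20.3 CPM, each overlapping its neighbour in this order. Heyl at 7.30 CPM and Notch3 at 5.64 CPM were the lowest of the genes, apart from the first start of Notch1.

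Among the starts of the receptors, the one that passed was the second start of Notch1. The 5′-most start of Notch1 (ENSMUSG00000026923.15, GRCm38 chromosome 2, minus strand, gene body 26457903 to 26516663) was nearly closed. Its window held 1.01, 1.74 and 0.538 CPM in uninjured replicates 1 to 3 and 1.00, 1.77 and 0.504 CPM in injured replicates 1 to 3. The start that was open lies inside the gene at 26503824, where RefSeq places the promoter printed below. That window (26502824 to 26504824) held 38.8, 35.5 and 31.5 CPM in uninjured replicates 1 to 3. In injured replicates 1 to 3 it held 20.7, 23.9 and 20.7 CPM, so that every injured library lay below every uninjured one. The means were 35.2 ± 3.66 and 21.8 ± 1.84 CPM (SD, n = 3). On the log2 scale the change was −0.47 ± 0.107 (SE), with an edgeR adjusted p of 0.0229. It was the only one of 34 tested start windows of the 10 genes to pass, where 5.73% of 40138 start windows were called and 2.97% lower. The call did not hold without uninjured replicate 1 (edgeR adjusted p = 0.0953), uninjured replicate 2 (0.0889) or injured replicate 1 (0.0860), and the change stayed between −0.39 and −0.57 without any single library. With doublets left out 0 start windows passed, and the second start of Notch1 changed by −0.45 ± 0.126 (SE; edgeR adjusted p = 0.0525). With the replicate number as a block, 7 of the 34 windows passed, all lower (over all start windows 11.7% were called and 7.36% lower): this one, 2 each at Hes1 and Hey1, and 1 each at Heyl and Dll1. Windows reach 1 kb on each side of starts that can be little over 500 bp apart. Those of 1 gene can therefore share cut sites and are not separate results.

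Notch1, 250 bases before the RefSeq start, GRCm38.p6 (chr2:26503823-26504072, - strand): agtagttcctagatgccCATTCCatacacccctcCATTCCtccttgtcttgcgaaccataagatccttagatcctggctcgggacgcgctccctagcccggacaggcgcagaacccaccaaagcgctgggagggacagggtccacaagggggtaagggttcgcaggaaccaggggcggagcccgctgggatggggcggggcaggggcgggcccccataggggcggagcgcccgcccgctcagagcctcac
Capitals mark the letters CATTCC, the reverse complement of the TEAD motif GGAATG.

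Notch1 also lost accessibility between its first and second starts, in an intron of transcripts from the first. The element of 4 neighbouring tiles at 26506501 to 26508500 begins 2677 bp upstream of the second start, the open one. It held 52.3, 51.1 and 28.6 CPM in uninjured and 19.3, 19.4 and 16.3 CPM in injured replicates 1 to 3. Uninjured replicate 3 was the lowest of its group and still above all injured libraries. The largest fall in it was at the tile 26506501 to 26507000, from 6.03 ± 2.67 to 1.81 ± 0.296 CPM (SD, n = 3; log2 change −1.60 ± 0.360, edgeR adjusted p = 0.0241). That call was lost without uninjured replicate 1 (edgeR adjusted p = 0.128), uninjured replicate 2 (0.125) or injured replicate 2 (0.129). The tile over the second start itself (26503501 to 26504000) fell by 0.74 on the log2 scale (edgeR adjusted p = 0.0150). The gains were 2 neighbouring tiles between genes, upstream of the first start. The larger, at 26532001 to 26532500 and 15338 bp from that start, held 0.270, 0.549 and 0.127 CPM before and 2.27, 3.29 and 1.40 CPM after injury, with 2.96 ± 0.572 as its log2 change (SE; edgeR adjusted p = 0.0130), a call lost without uninjured replicate 1 (0.0592) or injured replicate 2 (0.0833). The other (26531501 to 26532000) rose by 2.47 (edgeR adjusted p = 0.0487). Over its whole body plus 2 kb upstream, Notch1 changed by −0.60 ± 0.165 (SE), which missed the threshold (edgeR adjusted p = 0.0610). At the locus 2 of 148 tested tiles rose and 7 fell (1.35% and 4.73%, against 4.84% and 1.66% of all open tiles). At an unadjusted p under 0.05 edgeR had 6 and 24 (11.8% and 8.07% of all), and DESeq2 called 3 and 7 (6.7% and 1.88%).

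The 150 bases with the most cut sites in the intronic element of Notch1 are shown because this element holds 4 of the called losses at the locus. From here on capitals in elements mark matches, on either strand, to 4 short motifs: AP-1 (TGACTCA, reverse TGAGTCA), RBPJ (TGGGAA, reverse TTCCCA), TEAD (GGAATG, reverse CATTCC) and RUNX (TGTGGTT, reverse AACCACA). A match is a run of letters and not a measured binding site.
Notch1 intron, lower after injury (chr2:26507690-26507839, + strand): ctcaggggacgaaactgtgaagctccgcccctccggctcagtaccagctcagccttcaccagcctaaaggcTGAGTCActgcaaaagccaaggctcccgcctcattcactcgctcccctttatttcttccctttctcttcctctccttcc
The capitals are the AP-1 letters.

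At Notch2 the start did not pass and tiles inside its long gene body did. Notch2 (ENSMUSG00000027878.11, chromosome 3, plus strand, 98013527 to 98150361) is the paralogue of Notch1. Its start window held 25.4, 27.2 and 32.8 CPM before and 22.9, 23.6 and 19.8 CPM after injury. The groups did not overlap in CPM, but relative to all promoters the change was −0.09 ± 0.122 (SE; edgeR adjusted p = 0.715, 95% interval −0.32 to 0.15). Over the locus with its flanks 6 of 132 tested tiles rose and 2 fell (4.55% and 1.52%), near the 4.84% and 1.66% of all open tiles. Of these, 5 of the gains and both losses lay among the 107 tiles tested in the gene body. At an unadjusted p under 0.05 edgeR had 30 of the 132 higher and 8 lower, where the genome-wide shares were 11.8% and 8.07%. DESeq2 called 10 and 2 (6.7% and 1.88% over the genome).

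The strongest gain at any of the 10 loci by log2 change was in an intron of Notch2, 65974 bp downstream of its start. The tile 98079501 to 98080000 held 0.337, 0.213 and 0.380 CPM in uninjured and 10.2, 5.74 and 3.03 CPM in injured replicates 1 to 3. All 3 injured libraries were far above the uninjured ones, injured replicate 1 most (log2 change 4.51 ± 0.528, edgeR adjusted p = 0.00310). Its whole element (98079501 to 98081000) went from 1.62, 2.16 and 4.15 CPM to 31.0, 20.8 and 11.5 CPM. A second intronic element at 98027001 to 98028000, 13474 bp downstream, went from 0.809, 1.40 and 1.11 CPM to 12.3, 8.82 and 4.79 CPM (top tile 3.26, edgeR adjusted p = 0.00413). Going the other way, the tile 98127501 to 98128000, 113974 bp into the gene, held 14, 10.0 and 7.16 CPM before and 3.08, 1.52 and 2.75 CPM after injury. The log2 change was −1.96 ± 0.296 (SE; edgeR adjusted p = 0.00513). So a single gene gained intronic elements and lost another. The tiles of the first gain and of the loss kept their calls without each library in turn.

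Below are the 150 bases with the most cut sites in the 3 intronic elements of Notch2, to show gained and lost sequence side by side.
Notch2 intron, higher after injury (chr3:98080756-98080905, + strand): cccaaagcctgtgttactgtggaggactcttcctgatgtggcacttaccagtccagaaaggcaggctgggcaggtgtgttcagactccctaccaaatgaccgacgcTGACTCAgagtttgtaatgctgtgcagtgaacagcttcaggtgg
Notch2 intron nearer the start, higher (chr3:98027517-98027666, + strand): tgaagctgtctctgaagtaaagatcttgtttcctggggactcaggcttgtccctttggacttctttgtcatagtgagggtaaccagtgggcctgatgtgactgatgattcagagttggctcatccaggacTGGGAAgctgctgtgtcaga
Notch2 intron, lower after injury (chr3:98127903-98128052, + strand): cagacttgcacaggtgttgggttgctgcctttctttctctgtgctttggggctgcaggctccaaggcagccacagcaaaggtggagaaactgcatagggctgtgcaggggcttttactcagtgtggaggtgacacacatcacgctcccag
Of these printed bases the first hold the AP-1 letters, the next the RBPJ letters, and the lost ones none of the 4 motifs. The whole tiles differ from that. The gained tile at 98079501 holds the TEAD letters and not those of AP-1, which lie in the tile at 98080501. The lost tile at 98127501 holds the RBPJ letters outside the printed bases.

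Notch3 had the highest share of gained tiles of the 10 loci: 10 of 81 tested tiles rose (12.3%) and 0 fell (edgeR, adjusted p under 0.05). At an unadjusted p under 0.05 the numbers were 22 and 1 (11.8% and 8.07% over the genome), and DESeq2 called 12 and 0 (6.7% and 1.88%). Over the genome 4.84% of 397121 open tiles were called higher and 1.66% lower. Notch3 (ENSMUSG00000038146.8, chromosome 17, minus strand, 32120820 to 32166852) is best known from smooth muscle and from basal layers of stratified epithelia. Its start window was low, with 4.92, 6.55 and 5.67 CPM before and 5.64, 5.49 and 5.55 CPM after injury. The groups overlapped there (log2 change 0.24 ± 0.211, edgeR adjusted p = 0.547).

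The largest gain at Notch3 was in the tile 32146501 to 32147000, which touches an exon and lies 19852 bp downstream of the start. It held 0.135, 0.122 and 0.317 CPM before and 4.77, 4.35 and 1.71 CPM after injury (log2 change 4.31 ± 0.571, edgeR adjusted p = 0.00358). An element 2649 bp upstream of the start (32169501 to 32170500) held 1.75, 1.86 and 1.27 CPM before and 8.33, 6.59 and 4.90 CPM after (top tile 2.20, edgeR adjusted p = 0.00490). Elements beyond the 3′ end at 32107501 to 32108500 and 32117501 to 32118500 rose by 1.82 and 1.70 at their top tiles. A further gain touches an exon of Ephx3, so the 50 kb flank also reads a neighbouring gene. The upstream element is printed because it is the gain nearest to a Notch receptor start.
Notch3, upstream of the start, higher (chr17:32169976-32170125, + strand): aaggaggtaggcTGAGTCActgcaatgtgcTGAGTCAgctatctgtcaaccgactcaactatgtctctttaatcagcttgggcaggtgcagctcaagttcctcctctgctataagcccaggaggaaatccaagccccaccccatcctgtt
It holds the AP-1 letters at 2 places. Of the other gained elements of Notch3, only that at 32121501 holds these letters in its 150 bases with the most cut sites. The largest gain, at 32146501, holds none of the 4 motifs in those bases.

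The ligands came next, and none of their 5′-most starts passed by edgeR with TMM factors. Jag1 (ENSMUSG00000027276.7, chromosome 2, minus strand, 137081456 to 137116644), a Jagged ligand, had the most open start of the 10 genes. It held 67.0, 60.8 and 58.7 CPM before and 48.3, 48.3 and 49.2 CPM after injury, means of 62.1 ± 4.32 and 48.6 ± 0.524 (SD, n = 3). Its groups did not overlap in CPM, and relative to all promoters it changed by −0.07 ± 0.0742 (SE; edgeR adjusted p = 0.638, 95% interval −0.21 to 0.08). In an intron, the tile 137110501 to 137111000, 5644 bp downstream, went from 6.68, 6.37 and 2.15 CPM to 1.38, 1.94 and 1.43 CPM. This fall of 1.56 ± 0.410 on the log2 scale just passed (edgeR adjusted p = 0.0450). It did not pass without any one of 5 libraries, with edgeR adjusted p between 0.0549 (without injured replicate 3) and 0.216 (without uninjured replicate 2), and without the sixth, uninjured replicate 3, it did. Past the 3′ end, at 137044001 to 137044500 in the neighbouring gene Slx4ip, 0.405, 0.427 and 0.158 CPM became 6.48, 4.43 and 1.71 CPM (log2 change 3.85 ± 0.591, edgeR adjusted p = 0.00534). That gain lies 72144 bp from the Jag1 start and kept its call without each library in turn.

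Jag2 (ENSMUSG00000002799.6, chromosome 12, minus strand, 112907819 to 112929776) is the other Jagged ligand. Its start held 30.3, 24.7 and 29.4 CPM before and 18.6, 18.2 and 25.3 CPM after injury. Injured replicate 3 reached above uninjured replicate 2, so the groups overlapped (log2 change −0.16 ± 0.107, edgeR adjusted p = 0.409). In its 50 kb flanks 3 tiles rose and 3 fell of 91 tested at the locus (3.3% each, against 4.84% and 1.66% of all open tiles), and 0 of the 17 tested in the gene body did either. The fall with the smallest spread was at 112877501 to 112878000, 51776 bp downstream and 9273 bp from the start of Gpr132. It held 11.2, 13.9 and 10.7 CPM before and 5.62, 5.57 and 5.85 CPM after injury (log2 change −0.96 ± 0.167, edgeR adjusted p = 0.00832). The rise at 112897501 to 112898000 went from 3.04, 2.50 and 2.12 CPM to 6.80, 5.74 and 4.20 CPM (1.27 ± 0.285, edgeR adjusted p = 0.0236). Without injured replicate 2 neither of these calls held (edgeR adjusted p = 0.0543 for the fall and 0.114 for the rise), and without uninjured replicate 2 they also missed (0.0602 and 0.0657). The rise further missed without uninjured replicate 3 (0.0572) and without injured replicate 1 (0.109).

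Dll1 (ENSMUSG00000014773.13, chromosome 17, minus strand, 15367354 to 15376872), a Delta-like ligand, was the locus at which 0 of 37 tested tiles passed by edgeR or DESeq2. At an unadjusted p under 0.05 edgeR had 1 tile higher and 7 lower, where the genome-wide shares were 11.8% and 8.07%. The one with the smallest p, 15375501 to 15376000, went from 12, 9.90 and 9.15 CPM to 6.35, 6.16 and 6.86 CPM. These groups did not overlap, and the change of −0.57 ± 0.162 (SE) missed the threshold (edgeR adjusted p = 0.0619). Its start window held 27.5, 24.5 and 18.7 CPM before and 17.5, 18.8 and 15.1 CPM after injury, with overlap by a small margin (log2 change −0.16 ± 0.152, edgeR adjusted p = 0.565). The most open tile of the locus, at 15326001 to 15326500, 50372 bp downstream, held 21.1, 17.2 and 14.8 CPM before and 24.3, 18.0 and 17.5 CPM after (0.30 ± 0.187, edgeR adjusted p = 0.442).

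Of the target genes none passed at its 5′-most start by edgeR with TMM factors and without the block. Hes1 (ENSMUSG00000022528.8, chromosome 16, plus strand, 30064384 to 30067796) encodes the repressor most used as a readout of Notch signalling. Its start window held 47.7, 49.2 and 50.1 CPM before and 36.0, 36.0 and 34.7 CPM after injury, a narrow spread in both groups without overlap. Relative to all promoters it changed by −0.18 ± 0.0787 (SE; edgeR adjusted p = 0.209, 95% interval −0.33 to −0.02). Read over the gene body plus 2 kb upstream, it changed from 78.7 ± 1.57 to 58.9 ± 1.90 CPM (SD, n = 3; log2 change −0.32 ± 0.0820, edgeR adjusted p = 0.0498). It was the only one of the 10 genes called in that reading, in which 6.34% of 20305 genes were called and 2.77% lower.

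Around Hes1 5 of 83 tested tiles rose and 5 fell (6.02% each, against 4.84% and 1.66% of all open tiles), with 4 of the falls within 5 kb of the gene. The element 3384 bp upstream (30059501 to 30061000) held 32.4, 25.7 and 27.1 CPM before and 10.1, 9.42 and 14.9 CPM after injury. Every injured library was well below every uninjured one (top tile −1.26, edgeR adjusted p = 0.00446). Just past the 3′ end, 30068501 to 30069000 fell by 0.94 on the log2 scale (edgeR adjusted p = 0.0324). The largest fall lay 38117 bp downstream, at 30102501 to 30103000, from 10.7, 7.56 and 4.09 CPM to 1.03, 1.52 and 2.94 CPM (−1.95 ± 0.390, edgeR adjusted p = 0.0151). Injured replicate 3 was the highest of its group there and uninjured replicate 3 the lowest of its own. Further tiles opened. At 30090501 to 30091000, 26117 bp downstream, 0.135, 0.792 and 1.30 CPM became 5.91, 5.66 and 3.08 CPM (2.75 ± 0.525, edgeR adjusted p = 0.0124). Upstream, the element 30024501 to 30025500, 38884 bp from the start, went from 7.42, 8.01 and 5.73 CPM to 23.6, 15.4 and 14.7 CPM (top tile 1.63, edgeR adjusted p = 0.0121). Without uninjured replicate 2 the rise at 30090501 just missed (edgeR adjusted p = 0.0506), as it did without injured replicate 2 (0.0769). The fall at 30102501 was lost without uninjured replicate 1 (0.108), uninjured replicate 2 (0.0789) or injured replicate 2 (0.0927).

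The sequences contrast the proximal Hes1 element that closed with the distal one that opened.
Hes1, upstream, lower after injury (chr16:30060543-30060692, + strand): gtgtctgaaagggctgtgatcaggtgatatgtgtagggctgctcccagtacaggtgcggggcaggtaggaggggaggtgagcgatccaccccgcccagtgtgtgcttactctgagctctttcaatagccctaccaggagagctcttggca
Hes1, downstream, higher after injury (chr16:30090375-30090524, + strand): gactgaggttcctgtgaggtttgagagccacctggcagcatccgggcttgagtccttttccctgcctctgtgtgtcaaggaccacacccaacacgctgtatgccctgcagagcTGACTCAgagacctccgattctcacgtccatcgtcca
The element that fell holds none of the 4 motifs in these 150 bases, and the one that opened holds the AP-1 letters. Outside the printed bases, the tile at 30059501 of the element that fell holds the RBPJ and TEAD letters.

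Hey1 was the locus with losses only: 4 of 41 tested tiles fell (9.76%) and 0 rose (edgeR, adjusted p under 0.05). At an unadjusted p under 0.05 the numbers were 10 lower and 0 higher (8.07% and 11.8% over the genome), and DESeq2 called 4 and 0 (1.88% and 6.7%). Hey1 (ENSMUSG00000040289.8, chromosome 3, minus strand, 8663359 to 8667256) is a repressor of the Hes-related family. Its start window held 47.8, 59.8 and 56.9 CPM before and 31.3, 39.9 and 42.2 CPM after injury, and the groups did not overlap. The change was −0.27 ± 0.111 (SE; edgeR adjusted p = 0.184), and with the replicate number as a block −0.25 ± 0.0590 (edgeR adjusted p = 0.0163). The tile just before the start, 8667501 to 8668000, fell by 0.56 (edgeR adjusted p = 0.0466).

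The strongest loss at any of the 10 loci by log2 change lay 43245 bp upstream of Hey1. The tile 8710501 to 8711000 held 3.24, 2.96 and 2.03 CPM before and 0.201, 0.253 and 0.252 CPM after injury. That is a mean of 2.74 ± 0.634 against 0.235 ± 0.0301 CPM (SD, n = 3). The log2 change was −3.43 ± 0.404 (SE; edgeR adjusted p = 0.00310), and the call held without each library in turn. Its element (8710001 to 8711000) went from 5.73, 5.49 and 3.23 CPM to 0.802, 0.760 and 0.700 CPM. Nearer to the gene, 15745 bp upstream, 8683001 to 8683500 fell by 2.22 (edgeR adjusted p = 0.0241).
Hey1, far upstream, lower after injury (chr3:8710456-8710605, + strand): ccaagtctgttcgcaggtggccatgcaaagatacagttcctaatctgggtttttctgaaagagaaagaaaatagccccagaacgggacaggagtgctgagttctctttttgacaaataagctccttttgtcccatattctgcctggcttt
None of the 4 motifs is found in these bases.

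Heyl had the largest change of the 10 start windows in size. Heyl (ENSMUSG00000032744.4, chromosome 4, plus strand, 123233556 to 123249875) is a further Hes-related repressor. Its start window held 9.65, 10.4 and 8.52 CPM before and 5.48, 5.24 and 4.48 CPM after injury, means of 9.53 ± 0.957 and 5.07 ± 0.521 (SD, n = 3). The log2 change of −0.62 ± 0.197 missed the threshold without the block (edgeR adjusted p = 0.0903, 95% interval −1.01 to −0.24) and passed with it (−0.63 ± 0.172, edgeR adjusted p = 0.0336). The tile over its start, 123233501 to 123234000, went from 7.89, 7.62 and 6.52 CPM to 3.92, 3.97 and 3.50 CPM (−0.83 ± 0.205, edgeR adjusted p = 0.0341). This call was lost without uninjured replicate 1 (edgeR adjusted p = 0.146), uninjured replicate 2 (0.159), injured replicate 1 (0.0708) or injured replicate 2 (0.112). At 19056 bp upstream, in the gene Nt5c1a, the tile 123214001 to 123214500 opened from 0.472, 0.305 and 0.127 CPM to 6.11, 3.97 and 2.07 CPM (4.00 ± 0.566, edgeR adjusted p = 0.00418).

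Nrarp (ENSMUSG00000078202.3, chromosome 2, plus strand, 25180758 to 25183339) binds the Notch transcription complex and dampens it. Its start window held 38.5, 37.8 and 31.5 CPM before and 29.0, 29.3 and 27.1 CPM after injury, without overlap in CPM (log2 change −0.05 ± 0.102, edgeR adjusted p = 0.822, 95% interval −0.25 to 0.15). At the locus 6 of 71 tested tiles rose and 1 fell (8.45% and 1.41%, against 4.84% and 1.66% of all open tiles), all in the flanks. At an unadjusted p under 0.05 the numbers were 10 and 7 (11.8% and 8.07% of all), and DESeq2 called 8 and 1 (6.7% and 1.88%). An element 7258 bp upstream gained. It (25172501 to 25173500) went from 0.944, 1.19 and 3.23 CPM to 15.7, 10.7 and 6.36 CPM, and its tile at 25172501 to 25173000 rose by 2.92 ± 0.484 (SE; edgeR adjusted p = 0.00717). In both groups replicate 3 lay nearest to the other group. A further tile at 25176501 to 25177000, 3758 bp upstream, rose by 2.64 (edgeR adjusted p = 0.0149). The fall, at 25225001 to 25225500, lies 299 bp from the start of Tubb4b and 44243 bp from that of Nrarp (−0.46 ± 0.124, edgeR adjusted p = 0.0493). The call of that fall held without injured replicate 3 and was lost without each of the others, with edgeR adjusted p from 0.0796 (without injured replicate 1) to 0.289 (without uninjured replicate 1).
Nrarp, upstream, higher after injury (chr2:25172785-25172934, + strand): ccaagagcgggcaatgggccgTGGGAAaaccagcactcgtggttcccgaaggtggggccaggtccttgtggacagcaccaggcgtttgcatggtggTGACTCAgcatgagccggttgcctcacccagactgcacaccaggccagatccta
These bases hold the RBPJ letters and, further on, the AP-1 letters.

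**Figure D2:**
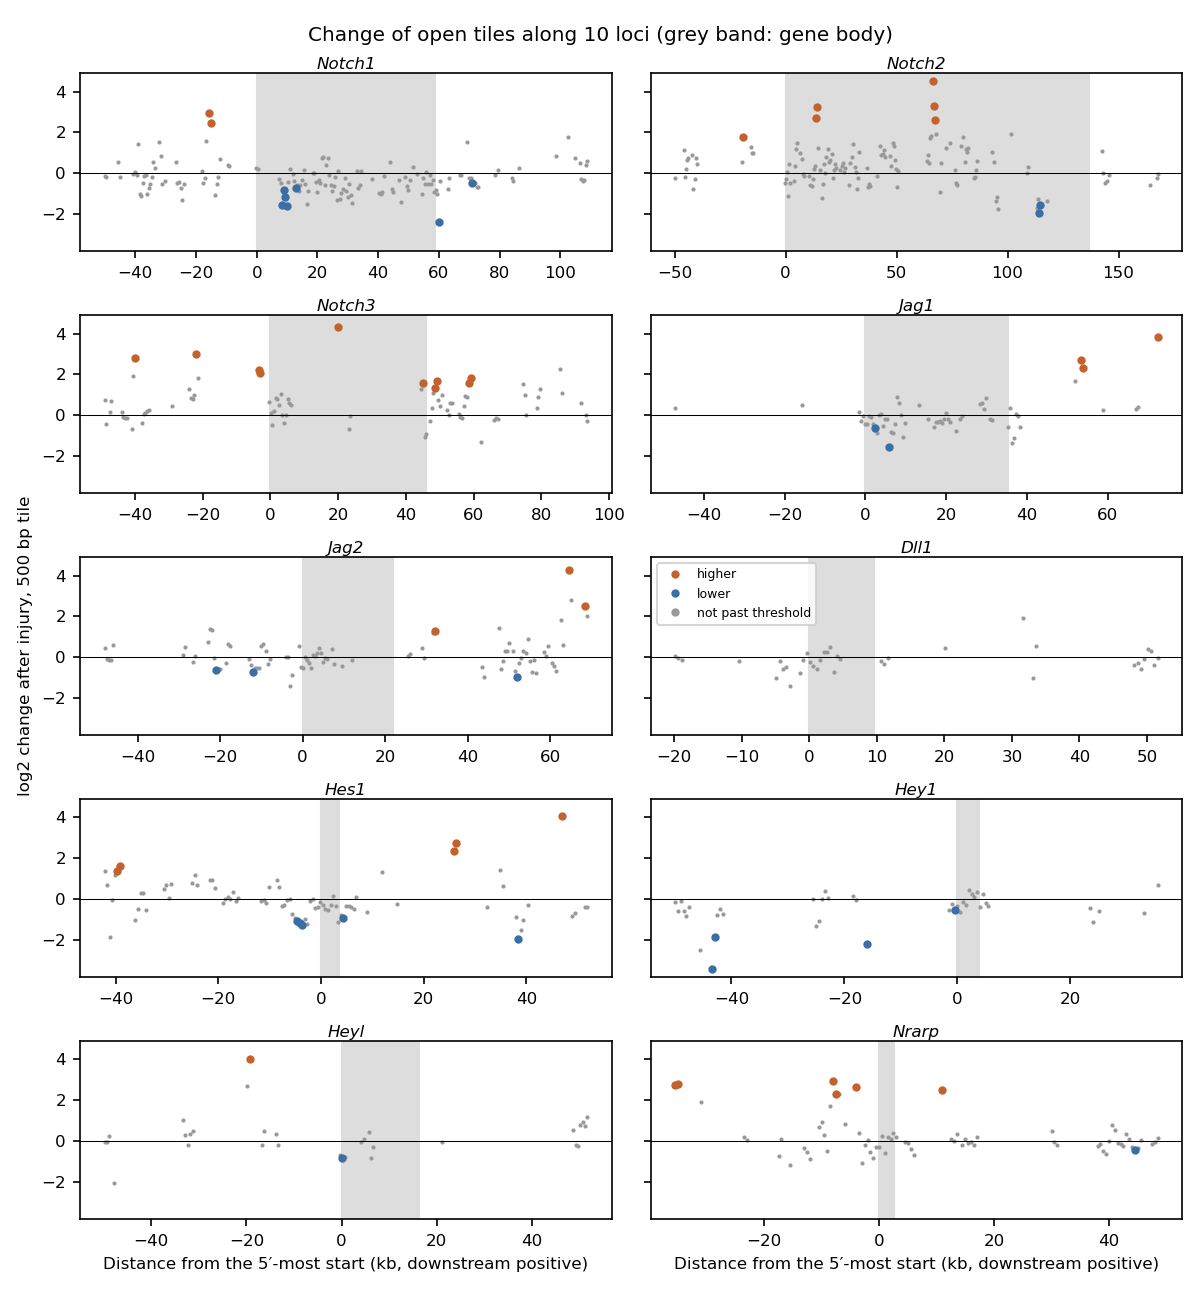
Log2 change after injury of each tested 500 bp tile against its distance in kb from the 5′-most start of the gene (downstream positive), 1 panel a gene, with the gene body as a grey band. Orange tiles rose and blue ones fell past the threshold. Gains stand within the gene body mainly at Notch2, on both sides of Notch3, and outside the body at the targets, while Hey1 has blue tiles only and Dll1 none of either.

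Over all 10 loci 775 of 849 open tiles were tested, and 36 rose (4.65%) and 25 fell (3.23%). The genome-wide shares were 4.84% higher and 1.66% lower, 6.51% in all, so the share of gains was near the background. That of losses was above it, a difference that was not tested. The called tiles formed 24 gained and 18 lost elements of neighbouring tiles. In CPM 246 of the 775 tiles did not overlap between groups, against 27.4% over the genome. The 36 gains had a median log2 change of 2.63 and the 25 losses one of −1.14, against −0.06 for all tested tiles at these loci. Of 304 tested tiles within the gene bodies, 7 rose and 10 fell, so most gains stood in the flanks, where other genes lie as well.

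The balance of gains and losses moved with the scaling, while the direction of the 61 called tiles did not. With factors from 10 kb bins 25 tiles rose and 69 fell (3.38% and 5.07% over the genome), and with total cut sites 33 rose and 40 fell (4.48% and 2.48%). In each of the fits over all barcodes, including those without 1 library, every one of the 61 tiles kept its direction wherever it was tested. Their number was less stable. Without uninjured replicate 1 there were 26 called tiles, without uninjured replicate 2 there were 23, without injured replicate 1 there were 30, and without injured replicate 2 there were 14, while without injured replicate 3 there were 103. Genome-wide calls moved the same way, from 19235 higher and 6604 lower of 397121 tiles with all libraries. They were 8808 and 737 of 424612 without uninjured replicate 1, and 9919 and 809 of 425165 without uninjured replicate 2. They were 6838 and 2775 of 426238 without injured replicate 1, and 4343 and 491 of 427737 without injured replicate 2. Without injured replicate 3 they were 33067 and 10636 of 420140.

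**Figure D3:**
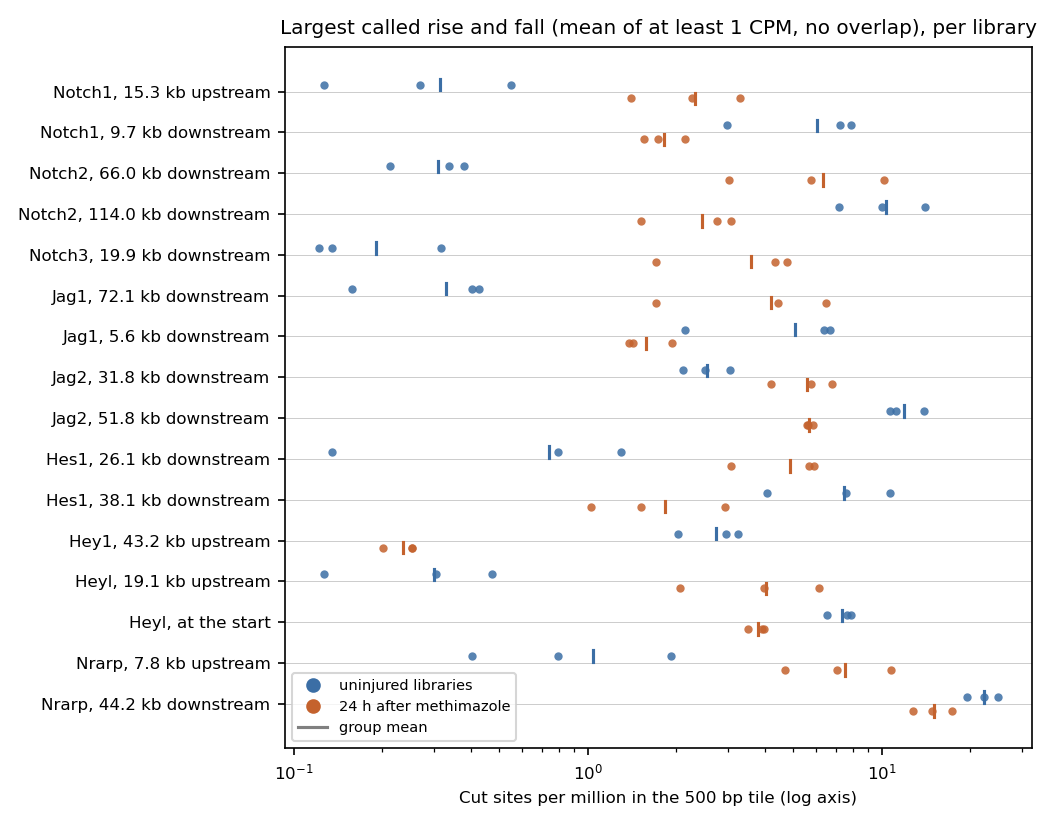
CPM (log axis) in the called tile with the largest rise and the one with the largest fall at each locus, among tiles with a mean of at least 1 CPM and no overlap between the groups, 1 dot a library, blue for uninjured and orange for injured, with group means as short lines. The groups are separate in every tile shown, as the choice requires. The gained Notch2 tile starts from 0.213 to 0.380 CPM and that of Jag2 from 2.12 to 3.04 CPM, and losses other than that of Hey1 keep 1.03 CPM or more after injury.

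The gained tiles held the AP-1 letters more often than the lost ones. AP-1 is a dimer of Fos and Jun proteins, which are made quickly after stress and injury. Of the 36 gained tiles 13 (36.1%) held TGACTCA on either strand, and of the 25 lost tiles 1 (4%) did, against 12.1% of the 775 tested at these loci. Over the genome the shares were 51.3% of gained, 3.77% of lost and 14.5% of all tested tiles, so the direction is that of the whole genome, and no test was made. Most of the gained sequences printed above hold the AP-1 letters, so they do not stand for all gained tiles. The letters bound by RBPJ, TGGGAA, were in 50% of the gained and 52% of the lost tiles, against 48.8% of tested tiles at the loci and 41.3% over the genome. With the longer form GTGGGAA, which contains the shorter one, the shares were 13.9% and 12% against 14.8% and 11.1%. TEAD letters (GGAATG) were in 27.8% of gained and 32% of lost tiles against 26.7% of tested ones. TEAD and RBPJ letters can overlap, since both hold GGAA. RUNX letters (TGTGGTT) were in 16.7% of the gained tiles and 0% of the 25 lost ones, against 9.68% of tested ones. Over the genome these shares were 14.8%, 9.4% and 11.9% for RUNX and 29.9%, 28% and 26% for TEAD. RefSeq promoters of 300 bases were at hand for 7 of the 10 genes, all but Hes1, Hey1 and Heyl: 0 of the 7 held the RBPJ, AP-1 or RUNX letters, and 1, Notch1, held those of TEAD. Among the 27025 RefSeq promoters of this length, 25.5% held the RBPJ, 5.17% the AP-1, 5.37% the RUNX and 14.6% the TEAD letters.

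**Figure D4:**
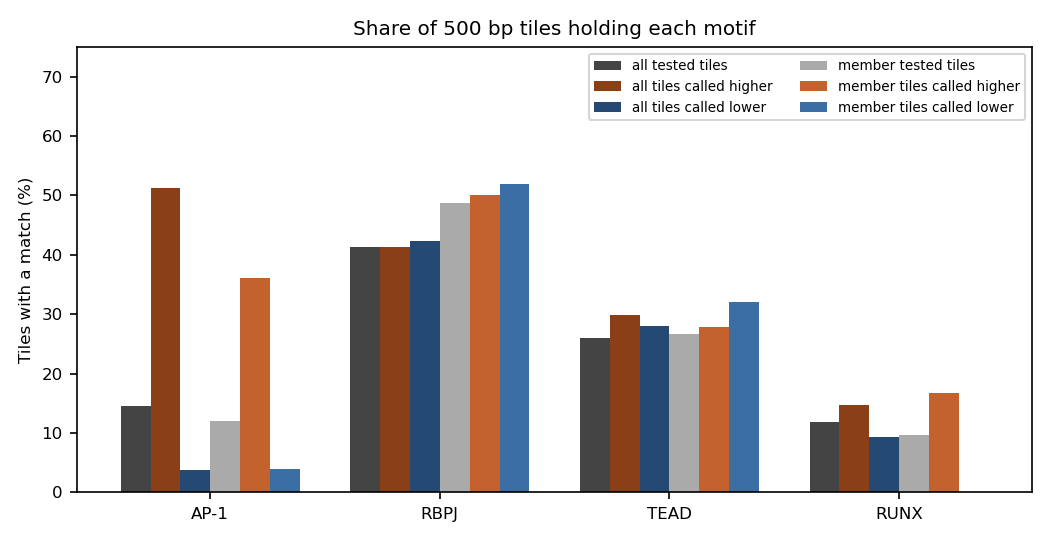
Share of 500 bp tiles, in percent, that hold the letters of each of 4 motifs on either strand, for all tested, all gained and all lost tiles of the genome and for those at the 10 loci. AP-1 is the motif whose bars part most, at 36.1% of gained and 4% of lost tiles of the loci, while the RBPJ bars lie between 41.3 and 52%.

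Clustering of 4397 barcodes gave 12 clusters, named from marker genes. Clusters 1 and 11 were HBC-like, 3 and 12 airway basal-like, 2 sustentacular-like, 5 and 6 immature neuron-like, 9 olfactory sensory neuron-like and 10 immune-like, and 3 clusters stayed unnamed. Cluster 1 held 926 barcodes, 910 of them uninjured, and cluster 11 held 1368, 1364 of them injured. HBC-like barcodes of both groups thus sit in separate clusters, which were formed on the same open regions, so a large change between them is partly built in. The leading genes of these clusters are not HBC markers, and the name rests on the whole list, of which 5 of 10 markers were up in cluster 1 and 4 of 10 in cluster 11 (median log2 0.487 and 0.434). Unnamed cluster 4, with 121 barcodes, had 7 of 10 up. Cluster 3 (948 barcodes, from all 6 libraries) was named from 3 of 4 airway markers and carried the HBC markers about as strongly (median log2 0.483). HBC-like barcodes were 293 of 454, 485 of 889 and 136 of 629 kept in uninjured replicates 1 to 3. In injured replicates 1 to 3 they were 989 of 1338, 248 of 420 and 143 of 746, so replicate 3 had the smallest part in both groups.

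In HBC-like cells alone the changed tiles moved further. Of the 36 gained tiles 34 could be tested there and all 34 were called higher by edgeR, with a median log2 change of 3.79, and 22 of 23 tested losses were called lower, with a median of −1.50. In that fit 25.9% of all tiles were called higher and 14.2% lower, and at the 10 loci 95 of 371 tiles rose and 75 fell. The gained and lost tiles were chosen on sums that include the HBC-like barcodes, so their counts here are not independent of that choice. In cluster 3, of 10 gained tiles that could be tested 1 was called higher (median 0.88), and of 20 lost ones 0 were called lower (16 were below 0, median −0.24). The fit on cluster 3 called 0.559% of all tiles higher and 0.0776% lower.

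A test of the difference itself, with the library as a term, asked whether the change in HBC-like cells differed from that in cluster 3. It passed at 34 of 427 tiles of the loci above 0 and at 26 below 0, 14.1% in all, against 5.5% above and 3.8% below 0, or 9.3% of 173364 tiles, over the genome (edgeR, adjusted p under 0.05). Without 1 library the number of tiles was 41 to 52, or 8.87 to 11% of those tested at the loci, against 4.85 to 7.01% over the genome. Of 33 gained tiles tested 16 were among those above 0, and of 23 lost ones 10 were among those below 0, counts that are not independent of how those tiles were chosen.

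The gained Notch2 element at 98079501 shows the contrast. Pooled over the libraries of a group, it went from 1.79 to 39.0 CPM in HBC-like cells and from 5.18 to 7.60 CPM in cluster 3, and its first tile differed by 5.49 ± 1.13 on the log2 scale (SE; edgeR adjusted p = 0.000329). Before injury this element was thus more open in cluster 3 than in HBC-like cells. The lost Notch2 element at 98127501 fell from 24.1 to 2.90 CPM in HBC-like cells, against 8.90 and 7.39 CPM in cluster 3 (difference −3.46 ± 0.407 at its first tile, edgeR adjusted p = 1.36e-09). The Notch1 intronic element went from 69.7 to 21.5 CPM in HBC-like cells, against 29.9 and 27.0 CPM in cluster 3, so that HBC-like cells began above and ended below (difference −2.09 ± 0.530 at its first tile, edgeR adjusted p = 0.00458; 0.0628 without injured replicate 1). In sustentacular-like cells that element held 11.3 CPM before injury and in olfactory sensory neuron-like cells 3.62 CPM.

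Among the targets, the Nrarp element at 25172501 rose from 0.542 to 19.4 CPM in HBC-like cells and stood at 1.93 and 3.43 CPM in cluster 3 (difference 3.57 ± 0.743, edgeR adjusted p = 0.000407). The Hes1 tile at 30102501 fell from 12.4 to 0.789 CPM, against 4.12 and 3.14 CPM (difference −3.34 ± 0.523, edgeR adjusted p = 2.42e-06). The proximal Hes1 element at 30059501 went from 35.9 to 9.83 CPM in HBC-like cells and from 31.4 to 21.8 CPM in cluster 3, with a difference at its tile 30060501 of −1.09 ± 0.269 (edgeR adjusted p = 0.00334). Its other tiles, at 30059501 (−0.72 ± 0.580, edgeR adjusted p = 0.532) and 30060001 (−1.12 ± 0.416, 0.0754), did not pass. The far upstream Hes1 element at 30024501 went up in both, from 7.43 to 25.1 and from 8.30 to 21.1 CPM. Its pair of tiles differed by 1.31 ± 0.361 (edgeR adjusted p = 0.0102) and −0.17 ± 0.460 (edgeR adjusted p = 0.893). The Hey1 element at 8710001 was open in HBC-like cells (6.83 CPM before, 0.947 CPM after injury) and in sustentacular-like cells before injury (12.6 CPM), and nearly closed in cluster 3 (0.531 and 0.408 CPM). Its tiles did not pass the test of the difference (edgeR adjusted p = 0.272 and 0.587).

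The starts were read in these cells too, without a test of the difference from cluster 3. Of 23 start windows tested in HBC-like cells, 4 fell, where 21.4% of all start windows were called and 9.4% lower. These were the second start of Notch1 by 0.41 on the log2 scale (edgeR adjusted p = 0.0217), the second start of Dll1 by 0.42 (0.0258), the first start of Hey1 by 0.34 (0.0425) and the fourth start of Notch1, a weak one, by 1.61 (0.0491). In the separate fit on 5′-most starts, 0 of the 9 genes tested passed in these cells, where 16.8% of 14365 promoters were called. Pooled levels at some starts were lower in olfactory sensory neuron-like cells. Heyl held 10.9 CPM in uninjured HBC-like cells against 1.32 CPM in olfactory sensory neuron-like ones, and Dll1 32.5 against 4.28 CPM. Hey1 (52.5 against 60.6 CPM), Jag2 (26.6 against 38.5 CPM) and Notch3 (4.61 against 6.59 CPM) went the other way. The other genes were lower in olfactory sensory neuron-like cells, whose uninjured values rest on 59 barcodes. The second start of Notch1 held 37.8 CPM in uninjured HBC-like cells, 37.9 CPM in sustentacular-like and 4.61 CPM in olfactory sensory neuron-like ones. Pooled before injury, Hes1 held 71.7 CPM in sustentacular-like and 49.2 CPM in HBC-like cells, an order that rested on uninjured replicate 2. By uninjured replicates 1 to 3 it held 44.5, 81.4 and 56.1 CPM in the former and 52.5, 38.4 and 67.7 CPM in the latter. Sustentacular-like cells were 148 barcodes in all, so their values rest on few cells, and all pooled values carry no error between libraries.

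**Figure D5:**
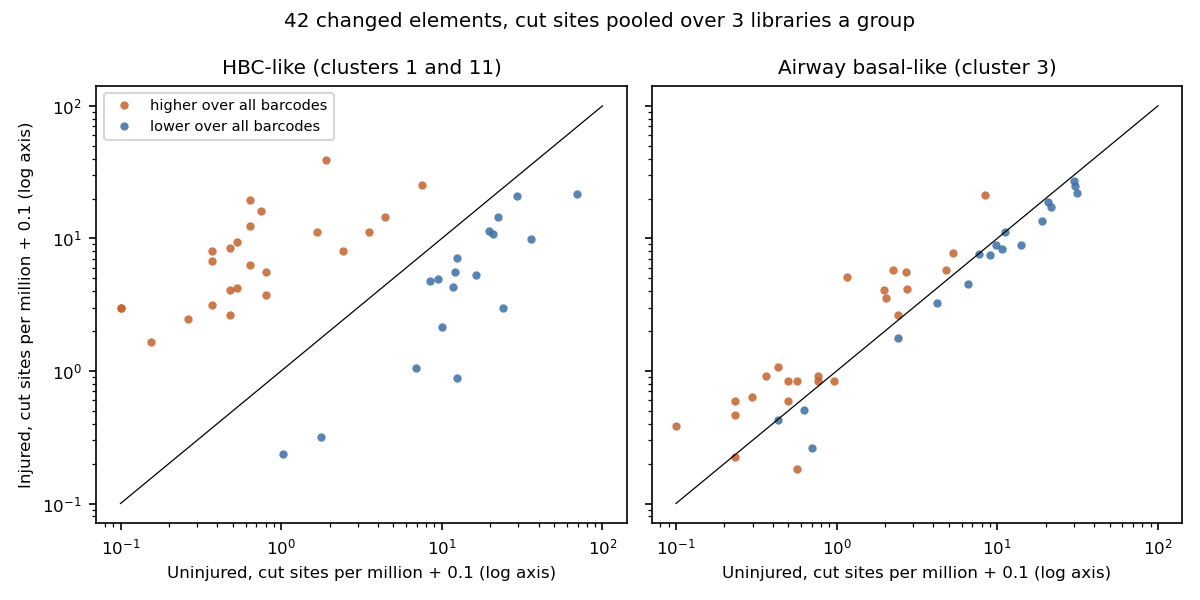
Pooled CPM plus 0.1 (log axes) of the 24 gained (orange) and 18 lost (blue) elements, uninjured against injured, in HBC-like cells (left) and in airway basal-like cluster 3 (right). The line marks equal values. In HBC-like cells all points stand off the line on the side of their colour, and in cluster 3 they lie nearer to it.

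Of 53 other genes of the pathway, 1 promoter rose and 0 fell, with a median log2 change of −0.07 (edgeR, adjusted p under 0.05, where 2.21% of all promoters were called higher and 1.71% lower). The riser was Notch4, the receptor known from endothelium. Its window held 0.540, 0.213 and 0.507 CPM before and 3.83, 3.42 and 1.29 CPM after injury (log2 change 3.12 ± 0.520, edgeR adjusted p = 0.00702). It stayed a weak start, and injured replicate 3 was the lowest of its group. Without injured replicate 1 it stood at the threshold and was not called, and without injured replicate 2 it missed it (edgeR adjusted p = 0.0541). In HBC-like cells it went from 0.325 to 4.26 CPM pooled.

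The next genes by p did not pass in the fit without the block. Mfng, a glycosyltransferase that modifies Notch, had a log2 change of 0.67 ± 0.204 (edgeR adjusted p = 0.0774), and Dner, an atypical ligand, of 0.58 ± 0.216 (0.140). Myc, a Notch target in several tissues, had −0.26 ± 0.0923 (edgeR adjusted p = 0.125) and the Hes family member Hes6 −0.22 ± 0.0803 (0.136). By role, 0 of 5 ligands, 0 of 17 genes that handle ligand or receptor, 0 of 9 protease genes, 0 of 9 of the nuclear complex and 0 of 12 targets passed, with medians of 0.09, −0.10, −0.07, −0.09 and 0.01. At an unadjusted p under 0.05 edgeR had 8 of the 53 genes, where 21.8% of all promoters were under that value, and DESeq2 called 2 after adjustment, where it called 7.2% of all. The 5′-most start of Rbpj itself was nearly closed, at 0.253 to 0.448 CPM, and its other starts were not part of this list. With the replicate block 4 of the 53 passed, 2 in each direction (10.4% of all promoters were called in that fit). The 2 that rose were Notch4 (2.93, edgeR adjusted p = 0.00358) and Mfng (0.67, edgeR adjusted p = 0.0390). In HBC-like cells 6 of 51 rose, Notch4 (3.76), Mfng (1.53), Furin (1.51), Dner (1.14), Ccnd1 (0.66) and Lfng (0.45), and 3 fell, Myc (−0.50), Hes6 (−0.43) and Numb (−0.35). Over all promoters 9.22% were called higher and 7.57% lower in that fit, so these counts are near the background. In cluster 3, 0 of 49 passed by edgeR, where 0.0292% of all promoters were called, and 1 had an unadjusted p under 0.05, as did 7.28% of all.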

How the data were processed

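Cells were profiled by droplet single-cell ATAC-seq. Per the submitters' processing notes, the authors used Cell Ranger 2.0.0 and mm10, and the headers of the deposited matrices name software version 1.2.0. How reads became fragments is not stated beyond that. The fragment files deposited by the authors list each fragment with its barcode and its number of read pairs, a count. Both ends of each fragment were taken as cut sites, with each fragment used once, and summed per library over barcodes with at least 2000 fragments. Cells are not replicates, so the fits compare 3 libraries with 3, or a group of 2 with 3 where 1 library is left out. The test of the difference between cell classes used the sums of HBC-like cells and of cluster 3 in each library. The labels call them biological replicates but do not say how many mice each holds. Kept cut sites ranged from 14825320 to 44875242 a library, so a CPM value is least precise in uninjured replicate 1.

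Starts, gene bodies and 500 bp tiles follow GENCODE M21 on GRCm38. Starts of 1 gene within 500 bp were joined. Open tiles have a mean of at least 5 times the median tile that holds a cut site. Counts were fitted with edgeR 4.0.16 (R 4.3.3; robust quasi-likelihood, TMM, filterByExpr) on all features of a kind, with kept cut sites as library sizes. DESeq2 1.42.0 was an alternative. Barcodes were clustered in Python 3.11.15 (scikit-learn 1.9.0, igraph 0.11.9) on regions seen in at least 1% of those with at least 20% of cut sites in open tiles. Of 4476 barcodes 562 were called doublets from stretches covered by more than 2 fragments, and were kept except in an alternative. The fits were also run on simulated counts with known changes, as many rises as falls, with the same spread for all features of a kind. These counts had no shift in the share of promoters, so they cannot test the choice of scaling. All values are from fits without the replicate number unless a sentence names the block. The numbers share an age in the labels, and across promoters the deviations of same-numbered libraries correlated at 0.106, 0.247 and 0.282, all over 0.1, so the blocked result is given where it changes a call. A pair of different numbers, uninjured replicate 2 and injured replicate 1, correlated at 0.150.

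The genes, lists and tests were chosen with earlier results of these data known. For each gene the text names its starts past the threshold and, of its tiles, the largest called rise and fall with a mean of at least 1 CPM and no overlap between the groups, or where none was called the tile with the smallest p and the most open one. Of the other pathway genes it names those called and, since there were under 5, the 5 with the smallest p. Other tiles and elements named were chosen after their values were seen, as were the pathway genes named for HBC-like cells, Rbpj and the windows printed as sequence, which are the 150 bases with the most cut sites in an element. Cluster 3, the test of the difference between cell classes and the fit without shared barcodes were added after the data were seen.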

Additional observations from a re-analysis of the deposited data

Results flagged for a closer look

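At 10 of the 18 tiles chosen by the rule for naming tiles the change after injury in HBC-like cells (clusters 1 and 11) differed from that in airway basal-like cluster 3, by an edgeR quasi-likelihood test of the difference with the library as a term. Over the genome 9.3% of 173364 tiles passed that test. Most of the 18 were chosen for the size of their change over all barcodes, so the count is not independent of that choice. All values are the log2 change in HBC-like cells minus that in cluster 3, with the SE. The HBC-like clusters hold 910 uninjured of 926 and 1364 injured of 1368 barcodes and were formed on the same regions, so the size of these differences is partly built in. A tile of each of the Hes1 elements at 30059501 and 30024501, described above, passed the same test, and the other tiles of these elements did not.

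Above 0 were the gained tiles of Notch2 at 98079501 (5.49 ± 1.13, edgeR adjusted p = 0.000329), Notch3 at 32146501 (6.12 ± 1.44, 0.00196), Jag2 at 112897501 (1.57 ± 0.484, 0.0250), Hes1 at 30090501 (3.39 ± 0.951, 0.0120), Heyl at 123214001 (5.33 ± 1.03, 0.000128) and Nrarp at 25172501 (3.57 ± 0.743, 0.000407). Below 0 were the lost tiles of Notch1 at 26506501 (−2.09 ± 0.530, edgeR adjusted p = 0.00458), Notch2 at 98127501 (−3.46 ± 0.407, 1.36e-09), Jag2 at 112877501 (−1.78 ± 0.310, 2.16e-05) and Hes1 at 30102501 (−3.34 ± 0.523, 2.42e-06).

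Some of these differences rest on single libraries. That of Notch3 was 1.70 without uninjured replicate 3 (edgeR adjusted p = 0.953). That of Hes1 at 30090501 missed the threshold without injured replicate 1 (0.0777) or uninjured replicate 2 (0.0868). That of Notch1 missed it without injured replicate 1 (0.0628). That of Jag2 at 112897501 missed it without uninjured replicate 1 (0.310), uninjured replicate 3 (0.0748), injured replicate 1 (0.189) or injured replicate 3 (0.119).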

How the results depend on the processing

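Results named for 1 gene or tile kept their direction in most alternatives. Of 178 values of the 10 promoters under alternatives 18 reversed, and of 300 values of the named tiles 3 did. The reversed promoters were Notch1 with 10 kb bins (−0.31), total cut sites (−0.03), doublets left out (−0.03), the gene body (−0.60), and without uninjured replicate 3 (−0.10) or injured replicate 2 (−0.27), Notch2 in HBC-like cells (0.14), over the gene body (0.30), and without uninjured replicate 3 (0.02) or injured replicate 3 (0.03), Notch3 with 10 kb bins (−0.30) and total cut sites (−0.05), Dll1 in cluster 3 (0.22) and with 500 bp on each side (0.16), Hes1 (0.02) and Nrarp (0.05) with 500 bp, and Nrarp without uninjured replicate 2 (0.01) or injured replicate 3 (0.04). Without 1 library in turn the promoter changes ran from −0.27 to 0.84 for Notch1, −0.17 to 0.03 for Notch2 and −0.15 to 0.04 for Nrarp. The reversed tiles were those of Notch2 at 98127501 (0.02) and Jag2 at 112877501 (0.20) in cluster 3, and Dll1 at 15326001 with 10 kb bins (−0.09). None of these reversed values passed the threshold by edgeR, and the cause was not tested.

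Counts past the threshold moved as follows, and the cause was not tested. Promoters of the 10 genes: 0 in the report, 8 with 10 kb bins, 8 with total cut sites, 2 with the replicate block, 1 with DESeq2 and 1 over gene bodies. Other pathway genes: 1 in the report, 2 with DESeq2, 34 with 10 kb bins, 27 with total cut sites, 4 with the replicate block, 3 with doublets left out, 9 in HBC-like cells, 0 in cluster 3, and 0 to 3 without 1 library. Of all 15806 promoters tested with doublets left out, 383 rose and 251 fell. Without 1 library 69 to 766 of all promoters rose and 31 to 610 fell. Start windows: 1 in the report, 5 with DESeq2, 17 with 10 kb bins, 14 with total cut sites, 2 without filterByExpr, 7 with the replicate block, 0 with doublets left out, 4 in HBC-like cells, 0 in cluster 3, and 0 to 1 without 1 library. Over the genome DESeq2 called 1582 start windows higher and 2199 lower of 31512. Of 40138 start windows 827 rose and 13314 fell with 10 kb bins, and 1191 and 8118 with total cut sites. Without filterByExpr the counts were 1133 and 1658 of 53155. They were 968 and 562 of 32641 with doublets left out, and 22 and 3 of 22707 in cluster 3. Without 1 library 303 to 1716 start windows rose and 178 to 1645 fell. Tiles: 61 in the report, 94 with 10 kb bins, 170 in HBC-like cells, 3 in cluster 3, 32 with a 10 kb flank (fewer tiles), and 14 to 103 without 1 library. Class difference: 60 in the report and 41 to 52 without 1 library, where 9.3% and 4.85 to 7.01% of all tiles tested passed. For tiles the replicate block gave 83, where 22473 of 397121 open tiles rose and 10920 fell over the genome. The tiles do not meet the pairing criterion, since replicate 1 of each group correlated at 0.033.

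Depth limits the weakest windows, such as the first start of Notch1 with 15 to 57 cut sites a library. Where 1 library is left out, a group of 2 is assumed to vary like the group of 3.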

Other observations

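Several changed tiles in the 50 kb flanks lie nearer to the starts of other genes than to a Notch pathway gene. Near Notch1, the tile 26445501 to 26446000 on chromosome 2 lies 285 bp from the start of Sec16a and fell by 0.47 on the log2 scale (edgeR adjusted p = 0.0293). Near Jag2, a tile in an intron of Gpr132, 2728 bp from the nearest of its annotated starts (112865001 to 112865500 on chromosome 12), rose by 4.25 (edgeR adjusted p = 0.0131), and another intronic tile (112861001 to 112861500), 49 bp from a different annotated start of that gene, rose by 2.49 (0.0240). A tile 87 bp from the start of Nudt14 fell by 0.72 (edgeR adjusted p = 0.0295). Near Notch3, a tile on an exon of Ephx3, 463 bp from its start, rose by 2.98 (edgeR adjusted p = 0.0138).

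Some tiles that were not called over all barcodes changed differently in HBC-like cells and cluster 3. Upstream of Notch1, the tile starting at 26551501 on chromosome 2 gave a difference of −4.12 ± 0.568 (SE; edgeR adjusted p = 1.15e-07). Upstream of Notch2, the tile starting at 97973001 on chromosome 3 gave 4.00 ± 0.681 (edgeR adjusted p = 1.34e-05). Within Jag1, the tile starting at 137098001 on chromosome 2 gave −1.34 ± 0.271 (edgeR adjusted p = 0.000270). These were picked for their values.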
